A study of Rattus norvegicus with 88 samples.

Results

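The miRNAs described here are 33 mature rat miRNAs of the cluster that runs from miR-379 to miR-410, out of 677 miRNAs on the array. They were taken from a fixed list of names of the cluster, with no measured value used in the choice, and all 33 were on the array. Total RNA from whole, untreated livers of F344 rats, an inbred laboratory strain, was measured with 1 array per animal on 88 Agilent arrays read in a single colour. The animals were 45 females and 43 males. Their ages were 2 weeks, before weaning, then 5, 6 and 8 weeks, 15 and 21 weeks, and in old age 52, 78 and 104 weeks, with 5 animals for each age and sex except 4 males of 5 weeks and 4 males of 104 weeks. Whole liver holds several cell types, so fewer cells of a type and less RNA per cell cannot be told apart, and the cycle stage of the females was not controlled.

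The miR-379 to miR-410 cluster lies in the imprinted Dlk1-Dio3 region, in which long noncoding RNAs and miRNAs are made from the maternally inherited chromosome and the protein-coding genes Dlk1, Rtl1 and Dio3 from the paternally inherited one. The miRNAs of the cluster are cut from long transcripts that carry many hairpins, and each hairpin can give a mature miRNA from its 5′ arm and one from its 3′ arm. The cluster is known for its activity in embryo, placenta and brain, and mice that lack it show disturbed glucose supply from the liver after birth.

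All 33 members were matched to a mature sequence in RefSeq, through the current names given in a later version of the array design. In the GRCr8 build they spanned chr6:134543460-134579828 on the plus strand, in 25 hairpins. No seed, the stretch from base 2 to base 8 that pairs with target mRNAs, was shared between members, but several seeds differed at 1 base only. The sequences below are those of the neighbours in seed and of the members on which the results turn, 5′ to 3′, with the seed in capitals. miR-379 and miR-411, cut from neighbouring hairpins, differed at 1 seed base.
miR-379: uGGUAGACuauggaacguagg
miR-411: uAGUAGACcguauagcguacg
In the miR-376 family, the seed of miR-376b-3p differed at 1 base from that of miR-376a and at 1 base from that of miR-376c, and the whole sequences of miR-376a and miR-376b-3p shared 18 of 21 bases.
miR-376a: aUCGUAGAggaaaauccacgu
miR-376b-3p: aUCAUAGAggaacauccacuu
miR-376c: aACAUAGAggaaauuucacgu
The seed of miR-154* differed at 1 base from those of miR-487b, miR-382* and miR-369-3p.
miR-154*: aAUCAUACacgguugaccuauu
miR-487b: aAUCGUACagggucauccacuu
miR-382*: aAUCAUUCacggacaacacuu
miR-369-3p: aAUAAUACaugguugaucuuu
The last 4 are shown because they had the largest called sex differences (miR-379*, the opposite arm of miR-379, and miR-541) or were the members detected on many later arrays (miR-494 and miR-409-3p).
miR-379*: cUAUGUAAcaugguccacuaac
miR-541: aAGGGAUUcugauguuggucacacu
miR-494: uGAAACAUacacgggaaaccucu
miR-409-3p: aAUGUUGCucggugaacccc

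Values are normalized intensities, the total signal of a miRNA divided by the 75th percentile of its array, and an undetected miRNA was given the lowest normalized intensity of any array, 0.0120. A 1.5-fold difference and a Benjamini-Hochberg adjusted p under 0.05 in limma, over all miRNAs tested, were required for a call. The 75th percentile, which sets how faint a signal could be detected, ran from 68.1 to 289.1 in the 2-week females and from 28.1 to 218.6 in the 2-week males, where replicate 3 stood apart with the lowest percentile and with 165 miRNAs detected against 217 to 255 on the other 4 male arrays. The hepatocyte miRNAs miR-122, miR-192 and miR-194 were detected on every array, and the neuronal miRNAs miR-124, miR-9 and miR-9* on none.

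rno-miR-379, rno-miR-411 and most other members were present in liver at 2 weeks and were mostly no longer detected from 5 weeks on. On the 2-week arrays, 30 of the 33 members were detected at least once, 16 of them on all 10 arrays. The number of members on an array was 18, 19, 21, 24 and 25 in the 5 females and 20, 26, 27, 27 and 30 in the 5 males. On the 78 later arrays it lay between 1 and 3, save for 1 female of 5 weeks with 9 members. Of the 30 members, 20 were detected on none of the 78 later arrays and 8 on 1 to 4 of them. The remaining 2, miR-494 and miR-409-3p, were detected on 78 and 41 later arrays. miR-323 and miR-543 were detected on no array, and miR-380 on a single one, of a male of 8 weeks.

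**Figure D1:**
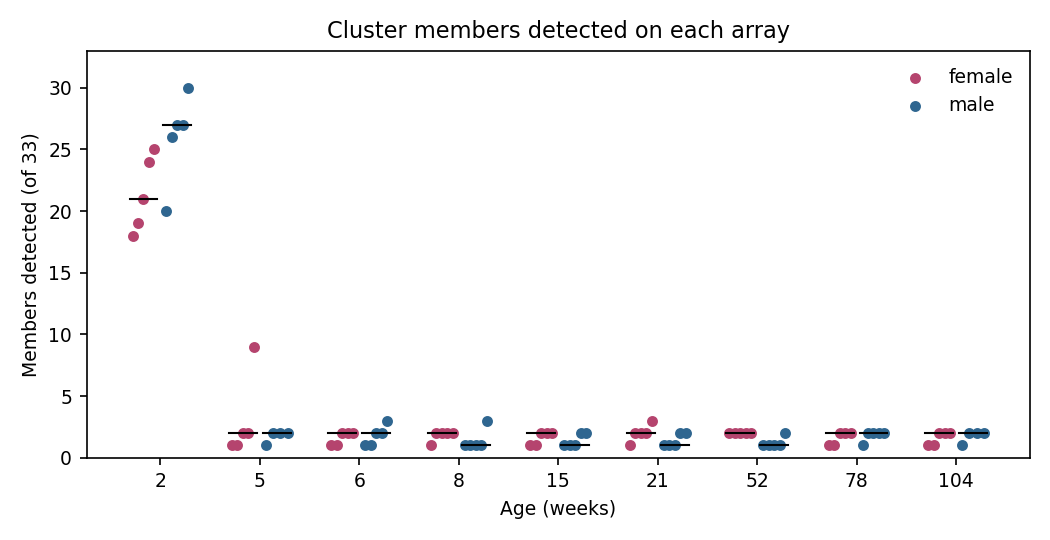
Number of the 33 members detected on each array (y axis) against age in weeks (x axis), with females and males as separate points and a black line at the median of each group. The 2-week arrays lie between 18 and 30 members and every later array lies at 9 or fewer.

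**Figure D2:**
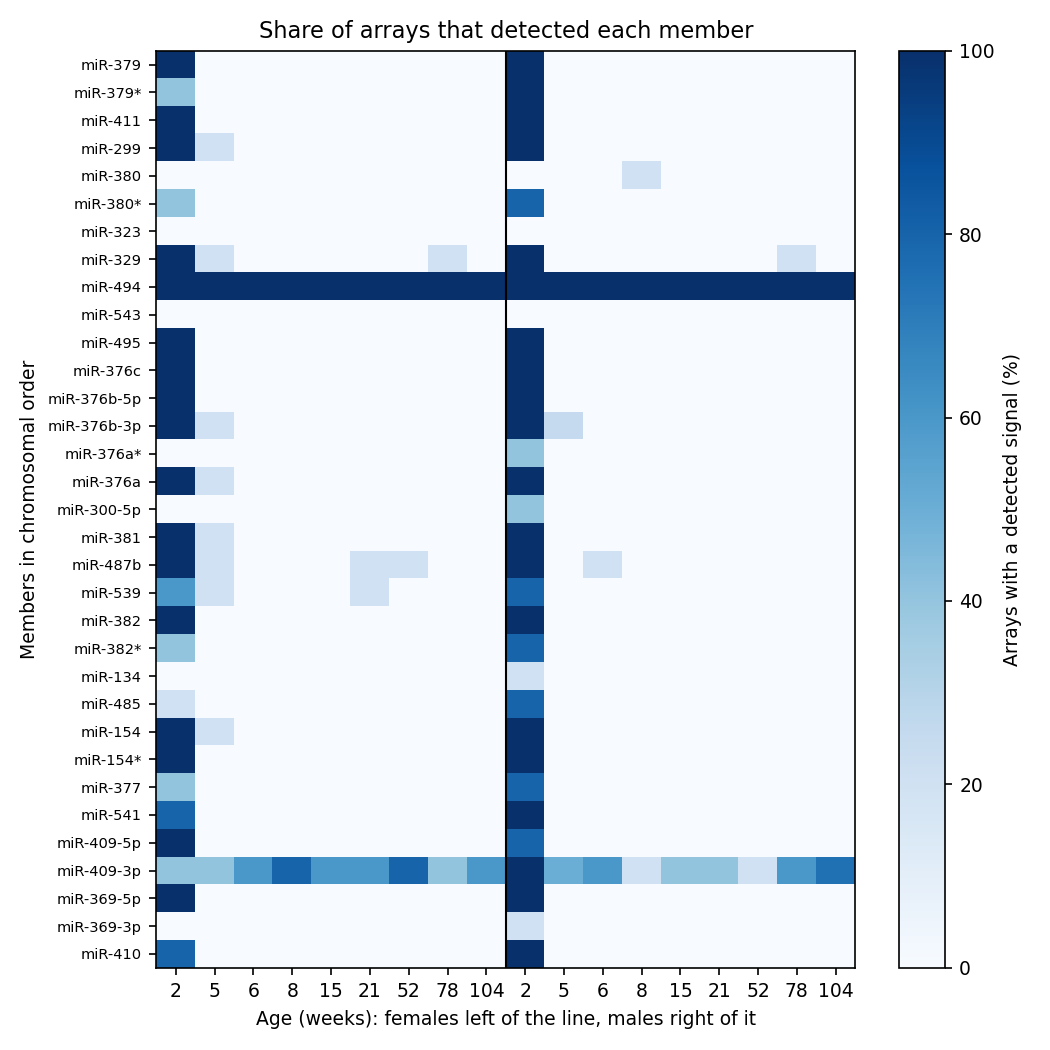
Share of the arrays of each age and sex on which a member was detected, in percent (colour), for the 33 members in chromosomal order (rows) and the 18 groups (columns). Nearly all colour lies in the 2-week columns, apart from the rows of miR-494 and miR-409-3p.

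In the test of 2 weeks against the mean of the 8 later ages, 21 members were called higher at 2 weeks in females and 24 in males, and none was called lower in either sex. Of all 314 miRNAs tested, 19.1% were called higher at 2 weeks in females and 20.1% in males. The median log2 difference was 2.97 over the 31 members tested in females and 4.28 in males, against -0.17 and -0.15 over all miRNAs. The medians were 1.54 and 2.12 with undetected values at the lowest detected intensity of the array, and with normexp background correction they turned to -0.13 and -0.04, against -0.41 and -0.52 over all miRNAs. Against 5 weeks alone the counts were again 21 and 24, beside 15.6% and 16.6% of all miRNAs. Most later arrays hold the same floor value for these miRNAs, which lowers their spread and therefore the p-values, so the sizes of the differences are given as bounds in what follows. For the 20 members detected on no later array, which entered the test through the 2-week arrays alone, the direction was fixed before the test. Neither their higher calls nor the absence of lower calls carries information on direction, and the counts and medians include them. The called members detected on a later array of the same sex were miR-154, miR-299, miR-329, miR-376a, miR-376b-3p, miR-381 and miR-487b in females. In males these were miR-329, miR-376b-3p and miR-487b.

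Marker miRNAs of liver cell types moved with age as well. All 3 hepatocyte miRNAs were called lower at 2 weeks in both sexes (median log2 differences of -0.86 in females and -1.18 in males), as were both erythroid miRNAs (-1.33 and -1.29). Of the 4 leukocyte miRNAs, 3 were called lower in females and 4 in males. The mesenchymal miR-143 was called lower in males (-0.60), while the median of the 5 miRNAs on its list was 0.05. miR-375 of the pancreas list was called higher in females (0.98) and males (2.40). The others of that list, miR-216a (-0.56 and -0.32) and miR-217 (-0.47 and -0.15), were lower and not called. The epithelial miRNAs miR-200a, miR-200b and miR-429 were called higher at 2 weeks in females, out of 5 on the list, and none in males. The others of that list, miR-141 (-0.44) and miR-200c (-0.53), were lower in females and not called. The summed hepatocyte level was 560 to 675 in females and 399 to 429 in males at 2 weeks, against 653 to 1388 and 634 to 1272 later. The summed leukocyte level was 3.73 to 5.16 and 2.93 to 5.60 at 2 weeks, against 5.63 to 29.98 and 6.85 to 22.7 later. That of the epithelial list overlapped between 2 weeks and later in both sexes. That of the erythroid list overlapped in females but not in males (3.18 to 6.26 against 7.14 to 28.01). The part of these markers in the age difference of the cluster was not tested.

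A bound was set for each member detected on none of the later arrays of a sex. The level at 2 weeks was divided by the lowest detected intensities of those arrays, taken over all miRNAs. The limit of a member's own probes may have been higher, and each bound holds only if it was not. The bound exceeded 1 for 11 of 16 such members in females and for 19 of 25 in males. Among those above 1 the median was 4.23 in females and 6.34 in males, and the other 5 and 6 members have no bound. All members of a sex were set against the same later limit, so the order of the bounds follows the 2-week signal of different probes and does not rank the members by their change with age. miR-154*, the 3′ arm of the miR-154 hairpin, was at least 46.4-fold higher at 2 weeks in females and at least 82.7-fold higher in males. miR-379 was at least 16.7-fold higher in females and 25.8-fold in males. In females miR-376c was at least 14.5-fold higher, miR-411 at least 9.99-fold and miR-369-5p at least 4.87-fold. In males miR-299 and miR-154 were each at least 24.6-fold higher and miR-376a at least 19.5-fold, and these had been detected on 1 later female array each and so have no bound in females.

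The members not called higher at 2 weeks fell into 3 kinds. miR-134, miR-300-5p, miR-369-3p and miR-376a* were undetected in all 2-week females and detected on 1 or 2 male arrays each, at 0.0403 or less. miR-134 is otherwise known as a miRNA of neurons that acts on dendritic spines. miR-379*, miR-485 and miR-539 passed the adjusted p in females with differences under 1.5-fold (log2 differences of 0.52, 0.18 and 0.57) and were called in males. miR-380, miR-409-3p and miR-494 did not pass in either sex.

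At 2 weeks the cluster was higher in males than in females. Of the 30 members tested on the 10 arrays of that age, 14 were called higher in males and none was called higher in females, where no member had an unadjusted p under 0.05 in that direction. Of all 267 miRNAs detected at 2 weeks, 10.5% were called higher in males and 6.74% higher in females. The male minus female log2 difference was above 0 for 29 of the 30 members, with a median of 0.90, against a median of -0.22 over all 267 miRNAs. For 4 of the 30, detected at 2 weeks in males only, the sign could not be negative. With a stricter detection filter that left out these 4, it was above 0 for 25 of 26 members, with a median of 1.01. The 5 males lay above all 5 females for 14 members, or 46.7% of the 30, and for 26 of all 267 miRNAs (9.74%). The 5 females lay above all 5 males for none of the members and for 53 of all miRNAs. The 15 members detected on every 2-week array and on fewer than 10 later ones were compared with their own 2-week mean, and none of the 15 was above it in any female. In males all 15 were above it in replicates 1, 2, 4 and 5, and 10 in replicate 3. Without male replicate 3, 21 members were called. With normexp background correction 1 member was called and the median fell to 0.22, and with the replicate number as a block 5 were called and the median was 0.84.

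**Figure D3:**
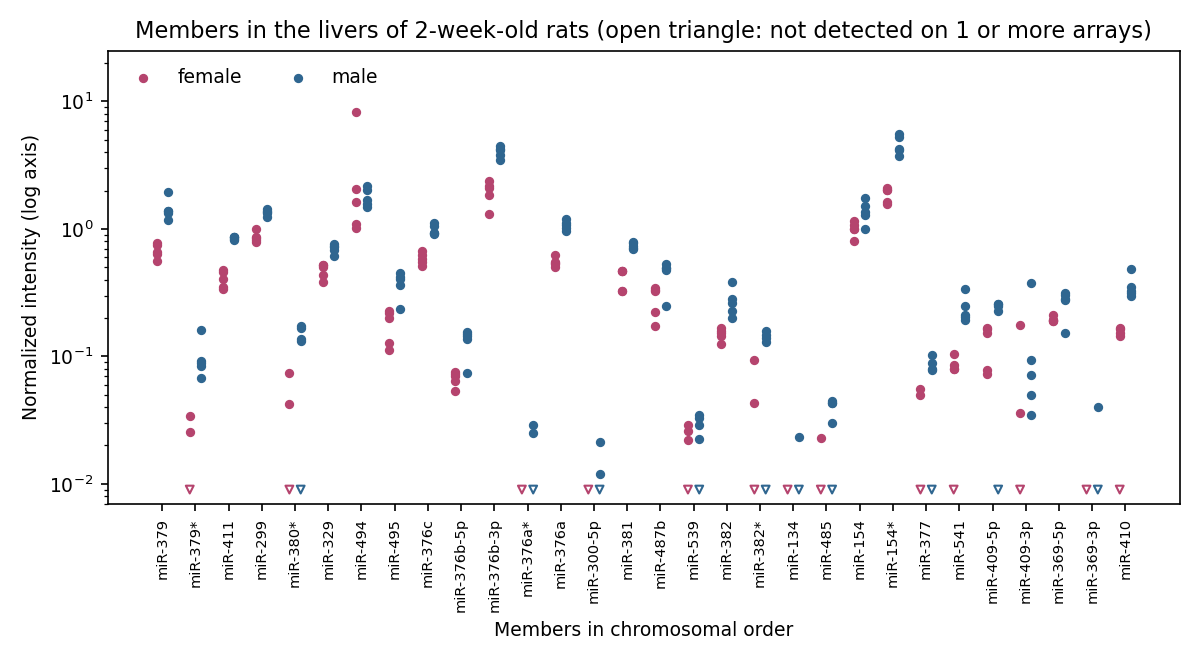
Normalized intensity of each member on the 10 arrays of 2-week-old rats (y axis, log scale), in chromosomal order (x axis), with females and males as separate points and an open triangle where 1 or more arrays of that sex did not detect the member. Levels of different members are not comparable, since each has its own probes; within a member the male points mostly lie above the female points.

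The first pair of the cluster, miR-379 and miR-411, showed the difference on every array. miR-379 was at 0.747, 0.633, 0.778, 0.659 and 0.559 in females and at 1.33, 1.37, 1.96, 1.38 and 1.17 in males. The lowest male lay above the highest female, and the log2 difference was 1.08 with a standard error (SE) of 0.15 (2.12-fold, adjusted p = 0.000611 in limma, n = 5 per sex). miR-411 was at 0.405, 0.473, 0.335, 0.460 and 0.352 in females. In males it was at 0.869, 0.861, 0.821, 0.858 and 0.828, the tightest group of any called member (SD 0.037 on the log2 scale). The log2 difference of miR-411 was 1.08 with an SE of 0.11. miR-379*, from the opposite arm of the miR-379 hairpin, was detected in 2 females, at 0.0339 and 0.0254, and in all 5 males, at 0.0843, 0.0928, 0.161, 0.0682 and 0.0892. Its log2 difference, 2.47 with an SE of 0.36, was the largest called, and it depends on the value given to the 3 females in which it was not detected.

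The miR-376 family gave 4 called members. miR-376b-3p was at 2.10, 2.18, 1.31, 2.36 and 1.84 in females and at 3.83, 4.46, 3.45, 4.15 and 4.20 in males, and the sexes did not overlap. Its log2 difference was 1.06 with an SE of 0.16. miR-376a was at 0.625, 0.505, 0.549, 0.542 and 0.529 in females and at 0.961, 1.08, 1.21, 1.12 and 1.01 in males, again without overlap. The log2 difference of miR-376a was 0.97 with an SE of 0.09, with the lowest adjusted p of the cluster (0.00013 in limma). miR-376c was at 0.671, 0.548, 0.576, 0.626 and 0.512 in females and at 0.909, 1.11, 0.922, 1.05 and 0.926 in males, a log2 difference of 0.75. miR-376b-5p, the opposite arm of miR-376b-3p, was at 0.0759, 0.0702, 0.0533, 0.0731 and 0.0646 in females and at 0.138, 0.15, 0.0747, 0.144 and 0.155 in males. Male replicate 3, the dimmest array, was the one that overlapped with the females for miR-376b-5p. These miRNAs resemble each other closely in sequence, and whether their probes share signal was not tested.

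In the miR-154 hairpin the arms differed in how far apart the sexes were. miR-154* was at 2.02, 2.04, 1.63, 2.11 and 1.58 in females and at 4.19, 5.56, 3.75, 5.26 and 4.27 in males. The sexes did not overlap, with a log2 difference of 1.29 and an SE of 0.14 (2.45-fold). miR-154, the 5′ arm, was at 1.0, 1.15, 0.809, 1.07 and 1.0 in females and at 1.29, 1.74, 0.996, 1.52 and 1.35 in males. It overlapped between the sexes and was not called, with a log2 difference of 0.44, an SE of 0.16 and an adjusted p of 0.0601 in limma. The difference between the arms was not itself tested. Of the 7 hairpins with both arms among the 30 members tested, both arms were called in miR-379 and miR-376b, 1 arm in miR-154, miR-376a and miR-382, and none in miR-369 and miR-409.

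The other called members lay along the length of the cluster. miR-495 was at 0.229, 0.199, 0.127, 0.220 and 0.112 in females and at 0.363, 0.453, 0.236, 0.418 and 0.407 in males, a log2 difference of 1.11 with an SE of 0.26. miR-381 was at 0.467, 0.467, 0.327, 0.468 and 0.326 in females and at 0.788, 0.704, 0.692, 0.779 and 0.740 in males, a log2 difference of 0.87. miR-382 was at 0.145, 0.168, 0.124, 0.159 and 0.152 in females and at 0.227, 0.384, 0.202, 0.263 and 0.280 in males, a log2 difference of 0.83. The sexes did not overlap in any of these 3. miR-299 was at 0.993, 0.857, 0.824, 0.861 and 0.795 in females and at 1.37, 1.34, 1.44, 1.38 and 1.25 in males, with no overlap and a log2 difference of 0.65, the smallest called. miR-541 was undetected in female replicate 4 and at 0.0860, 0.0795, 0.104 and 0.0794 in the other females, against 0.204, 0.335, 0.193, 0.213 and 0.250 in males, a log2 difference of 2.00 with an SE of 0.56. miR-485 was detected in 1 female, at 0.0228, and in 4 males, at 0.0446, 0.0431, 0.0434 and 0.0299. Its call (adjusted p = 0.0397 in limma) was lost when any 1 of 8 of the 10 arrays was left out, all but female replicate 5 and male replicate 3. The call of miR-541 was lost without male replicate 5 (log2 difference 1.98). The size of its difference depends on the value given to the female in which it was not detected. It ran from 1.43 to 2.21 with 1 array left out and from 0.28 to 2.42 over the other settings.

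Among members that were not called, miR-329 passed the adjusted p (0.00355 in limma) with no overlap between the sexes and missed the fold threshold, with a log2 difference of 0.58. miR-410 did not overlap either, at 0.145, 0.167, 0.164 and 0.154 in 4 females, undetected in the fifth, and at 0.327, 0.349, 0.487, 0.312 and 0.299 in males, with an adjusted p of 0.0724 in limma. miR-369-5p was at 0.212, 0.193, 0.191, 0.190 and 0.192 in females and at 0.282, 0.313, 0.152, 0.305 and 0.278 in males. Male replicate 3 was again the one below the females, and the adjusted p of miR-369-5p was 0.151. miR-380*, miR-382* and miR-377 were each detected in 2 females and 4 males, with male replicate 3 undetected each time. The remaining members, miR-134, miR-300-5p, miR-369-3p, miR-376a*, miR-409-5p, miR-487b and miR-539, had log2 differences between 0.17 and 0.69 and overlapped.

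**Figure D4:**
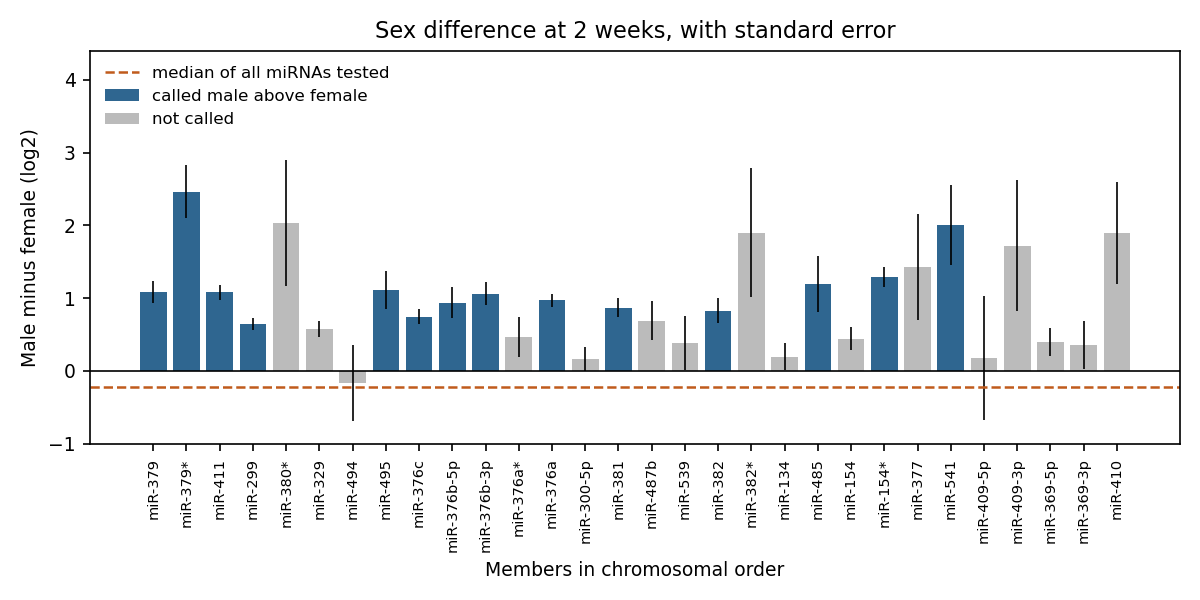
Male minus female difference of mean log2 normalized intensity at 2 weeks (bars, with the standard error of the fit) for the 30 members detected at that age, in chromosomal order, with the 14 called members in blue. The dashed line is the median of all 267 miRNAs at -0.22; only the bar of miR-494 lies below 0.

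The arrays were scanned in 5 runs, and at 2 weeks scans 4 and 5 held both sexes, while scan 3 held 3 males only and scan 2 held 1 female only. Scan 4 held 2 females and 1 male of 2 weeks, and scan 5 likewise 2 females and 1 male. Of the 30 members, 27 were higher in the male in scan 4 and 25 in scan 5. The median over the 30 members was 0.97 and 0.84, against 0.00 and -0.34 over all miRNAs. These are the same arrays on which the calls were made, with 1 male in each scan, and the values are a description. miR-409-3p turned to -0.69 in scan 4, against 1.72 over all 10 arrays. No test was run within a single scan. With scan as a block on the 10 arrays, 13 members were called, 11 of them among the 14, with a median of 0.86. At the level of single probes, 64 of the 71 probes of the 30 members had a higher median in males, which describes the same 10 arrays.

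The calls also depended on the scaling of the arrays. With the 75th percentile taken over only the 103 miRNAs found on all 88 arrays, the median of all 267 miRNAs moved to 0.12 and that of the members to 1.30, so the members stood 1.18 above all miRNAs instead of 1.12. Under that scaling 40 miRNAs were called higher in males and none in females, against 28 and 18 in the main setting, and 19 members were among the 40. With the percentile taken over all 677 miRNAs, 6 miRNAs were called higher in males and 1 in females, 5 members among the 6, while the member median was 0.94 and 28 of 30 members were above 0.

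The 14 called members made up 14 of the 28 miRNAs called higher in males at 2 weeks. Another 10 came from the upstream miRNAs of the same region, the group of miR-127, miR-136 and miR-433, in which 10 of the 12 tested were called, with a median log2 difference of 1.22. Another 3 came from miRNAs of the miR-379 to miR-410 cluster that are not on the list, miR-300-3p, miR-411* and miR-496, out of 5 tested (median 1.19). The single miRNA from outside the Dlk1-Dio3 region was the erythroid miR-144. Of the other lists of growth-related miRNAs, the 3 tested miRNAs of the imprinted H19 and Igf2 genes and the 6 of the X-linked miR-322 to miR-450 cluster included none called by sex at 2 weeks (medians -0.11 and 0.24). In the test of age, 10 of the 12 upstream miRNAs were called higher at 2 weeks in females and 12 in males (median log2 differences of 3.31 and 4.45), and 3 and 5 of the 7 tested miRNAs of the cluster that are not on the list. On a later array 6 of the upstream and 3 of these cluster miRNAs were detected. For the others the direction was fixed before the test, and the medians depend on the floor value. Of the 3 tested H19 and Igf2 miRNAs, 2 were called higher at 2 weeks in females and 3 in males. Of the 6 tested X-linked miRNAs, 6 were called higher in females and 4 in males. The differences between these lists were not tested.

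Marker miRNAs of liver cell types moved with sex at 2 weeks as well. The summed level of the 3 hepatocyte miRNAs lay between 560 and 675 in females and between 399 and 429 in males, and miR-122 was called lower in males (log2 difference -0.63). The summed levels of the erythroid, leukocyte, mesenchymal and endothelial markers overlapped between the sexes, at 3.29 to 5.64 against 3.18 to 6.26 for the 2 erythroid miRNAs, 3.73 to 5.16 against 2.93 to 5.60 for the 4 leukocyte miRNAs, 11.8 to 14.03 against 8.96 to 12.8 for the 5 mesenchymal miRNAs and 15.7 to 21.0 against 13.4 to 17.6 for the 2 endothelial miRNAs. One erythroid miRNA was called higher in males and 1 leukocyte miRNA, miR-150, lower, and none of the mesenchymal and endothelial miRNAs was called. In such sums the brightest probes weigh most, and the hepatocyte sum is mostly miR-122. The summed level of the members was 9.83 to 16.9 in females and 20.02 to 24.04 in males. The highest female sum, in replicate 4, held 8.28 from miR-494, and without miR-494 the sums were 8.62 to 11.4 and 17.99 to 22.4. The part of these markers in the sex difference of the cluster was not tested.

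Among the 2-week livers of one sex, the members varied together in part. With the mean of each sex removed, the 105 pairs of the 15 members detected on every 2-week array had a median correlation of 0.55 over 10 arrays (range -0.77 to 0.94), against a median of 0.19 for pairs of the 139 other miRNAs on every such array. All of these share the scaling of their array. miR-329, miR-154, miR-487b and miR-495 had the highest median correlation with the others (0.76, 0.75, 0.75 and 0.73). miR-379 and miR-376a had the lowest (-0.33 and -0.10). On the dim array of male replicate 3, miR-379, miR-379*, miR-376a, miR-299 and miR-410 were the highest of the 5 males, whereas miR-154, miR-487b, miR-495 and miR-329 were the lowest.

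The 2-week difference from later ages was larger in males than in females for 18 members in the interaction test, with none in the opposite direction, and 11.5% of all 314 miRNAs were called in that direction. The values repeat the sex differences at 2 weeks, since most members were at the floor in both sexes later. The count fell to 5, of 8 over all miRNAs, where undetected values were set to the lowest detected intensity of the same array, and to 6 of 13 with the lowest measured signal before scaling.

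After 2 weeks the members showed no called difference by age or by sex in the main setting, a count that depends on the value given to undetected miRNAs. In the F test over 5 to 104 weeks, 0 of 31 members were called in females and 0 in males, with none at an unadjusted p under 0.05, whereas 24.8% and 17.5% of all miRNAs were called. Between adult (5 to 21 weeks) and old (52 to 104 weeks) livers, 0 members were called in each sex, with none at an unadjusted p under 0.05, beside 5.41% and 5.73% of all miRNAs. Of 248 combinations of a member and a later age, 0 were called by sex in limma and 7 had an unadjusted p under 0.05, whereas 4.5% of the 2512 combinations over all miRNAs were called. With undetected values at the lowest detected intensity of the array, 7 members differed among the later ages in females, beside 33.1% of all miRNAs, and 30 of 248 combinations differed by sex, beside 8.44% of all combinations. The other settings gave up to 6 members (beside 28.0% of all miRNAs) and up to 2 combinations (beside 6.01%). For 29 of the 31 members these tests compare values that lie at the floor on nearly every array, and a difference below the detection limit was not detectable.

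The few detections after 2 weeks were concentrated on 1 array. Leaving out miR-494 and miR-409-3p, 70 of the 78 later arrays detected no member, 6 detected 1, and 1 detected 2. The array of 5-week female replicate 2 detected 8, miR-299 at 0.0840, miR-329 at 0.0549, miR-376b-3p at 0.0460, miR-376a at 0.0506, miR-381 at 0.145, miR-487b at 0.0804, miR-539 at 0.0275 and miR-154 at 0.0497. These levels were between 2.40% and 35.7% of the mean of the 2-week females, except for miR-539 (146%), which lay near the floor at both ages. On other arrays, miR-487b was at 0.262 in 6-week male replicate 5, above the lowest 2-week male (0.248), and miR-329 at 0.315 in 78-week male replicate 6, below every 2-week animal. The array was also the one with most signal in its group, with 229 miRNAs detected in all against 160 to 190 on the other 4 and a 75th percentile of 144.8 against 35.4 to 65.6. The same array detected 5 of the upstream miRNAs of the region. It shared its slide with 6 other arrays, 1 of them from a 2-week-old animal, male replicate 5, on which all 30 members of that age were detected. The part of the slide and of the signal level in these detections was not tested.

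rno-miR-494 was the one member detected on all 88 arrays, with no called difference by age. On the log2 scale the 2-week females averaged 0.99 ± 1.23 (SD, n = 5). The 2-week males averaged 0.82 ± 0.24 (SD, n = 5), and at the later ages the group means ran from 0.08 to 1.77 in females and from 0.33 to 1.28 in males. The 2-week females were at 2.05, 1.10, 8.28, 1.64 and 1.01 and the males at 1.57, 1.68, 2.04, 2.17 and 1.47, so that female replicate 4 set the spread. The log2 difference of 2 weeks from later ages was 0.30 with an SE of 0.37 in females and 0.06 with an SE of 0.37 in males. Without female replicate 4 the female difference turned to -0.22, it was 0.51 without female replicate 3 and 0.54 without female replicate 6, and the male difference ranged from -0.02 to 0.12 with 1 array left out. It was called as an increase in both sexes with the percentile over the miRNAs detected on every array (1.01 and 1.16) and, in males, as a decrease with the percentile over all 677 miRNAs (-1.09), so its direction with age was not settled. At 78 weeks the females were at 3.15, 2.39, 6.11, 4.13 and 2.40 and the males at 1.46, 1.23, 1.19, 0.965 and 1.54, without overlap. That male minus female log2 difference, -1.43 with an SE of 0.50, was not called (adjusted p = 0.0591 in limma), whereas the test named in the study's methods and normexp called it.

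miR-409-3p, the 3′ arm of a hairpin near the end of the cluster, was detected on 24 of 40 later female and 17 of 38 later male arrays, and its detection differed between scans. Of the later arrays, 22 of 27 in scan 3 and 19 of 25 in scan 4 detected it, against 0 of 1 in scan 1, 0 of 12 in scan 2 and 0 of 13 in scan 5. The arrays of scans 1 and 5, and no others, used the later design file, whose part was not tested. At 2 weeks it was detected on all 3 arrays of scan 3, all 3 of scan 4, 1 of 3 in scan 5 and 0 of 1 in scan 2. It was at 0.0362 and 0.178 in the 2 females that detected it and at 0.0939, 0.0345, 0.377, 0.0718 and 0.0497 in the males. Unlike the members around it, miR-409-3p was not higher at 2 weeks on any of its 3 probes, whose later medians (0.0612, 0.0614 and 0.0439) were above the 2-week medians of both sexes. Its log2 difference of 2 weeks from later ages was -1.09 with an SE of 0.92 in females and 1.13 with an SE of 0.90 in males, and neither was called. Without female replicate 4 the first was -1.78, and without male replicate 3 the second was 0.59. It was called lower in females with undetected values at the lowest detected intensity of the array (-1.29) and with the mean processed signal (-0.83), and higher in males with the percentile over the miRNAs found on all arrays (1.82), so its direction was not settled either. miR-409-5p, from the other arm of the same hairpin, was detected on 9 of the 10 arrays of 2 weeks and on no later array.

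**Figure D5:**
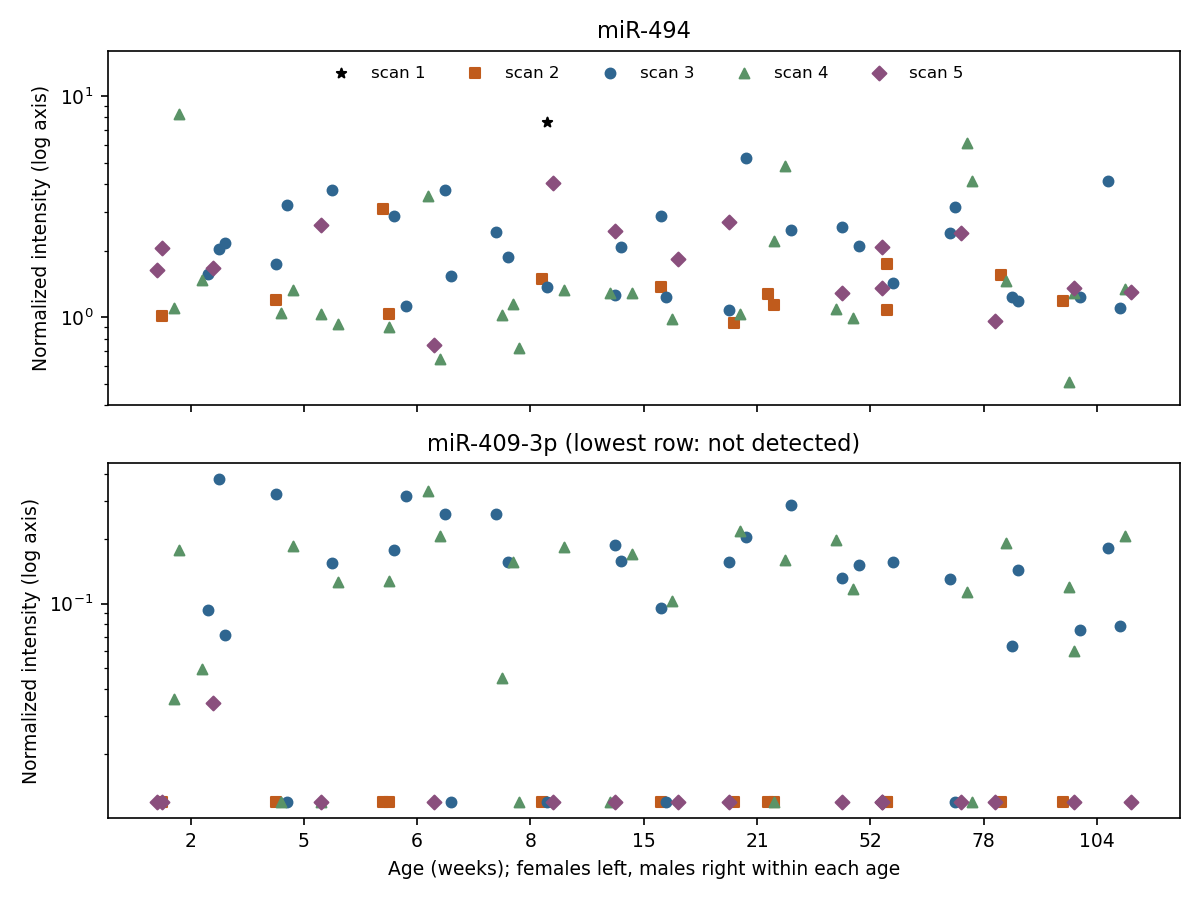
Normalized intensity of miR-494 (top) and miR-409-3p (bottom) on each of the 88 arrays (y axis, log scale) against age in weeks (x axis), females left and males right within each age, with symbols by scan. miR-494 is present at all ages, and the undetected arrays of miR-409-3p, drawn at the floor of 0.0120, include all later arrays of scans 1, 2 and 5.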

How the data were processed

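Per the labels, total RNA of whole homogenized liver was labelled with Cy3 for Agilent rat miRNA arrays. The authors deposited, for each array, Feature Extraction 10.7.3.1 output with linear intensity values per spot and per miRNA (0.1 marks an undetected miRNA). They also deposited 1 table of ratio values, total gene signals over the 75th percentile of the array. Per the methods, the authors replaced undetected miRNAs after scaling by the smallest measured value of the data set, as was done here. From the scanner files, each miRNA's signal was divided by the array's 75th percentile, ranked among the 314 miRNAs found on any array, undetected values were set to 0.0120, and log2 was taken. Of 15763 detected values, 1 differed from the deposited table by over 0.01 percent. Undetected values made up 43.0%.

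limma 3.58.1 (R 4.3.3, lmFit and eBayes) was fitted on all miRNAs, with 1 coefficient per age within each sex, on the 10 arrays of 2 weeks for the sexes at that age, and with 18 groups for the sexes at later ages and the interaction. Calls needed an adjusted p under 0.05 and 1.5-fold. The procedure was run on simulated data with normal noise and no detection floor, so that run does not bear on members at the floor. Scans are runs of arrays parted by over 8 hours in the scanner times, 5 in all, with 13 slides; 17 arrays used a later design file. P-values measure the spread between arrays, 1 per animal, in which animal and technical variation cannot be told apart. Values at the floor lower that spread. The number of arrays limits the precision. The cluster's members were listed by name and no measured value entered the rule, but the cluster, the other lists and the tests were chosen with earlier results of these data known.

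Values in every 2-week array were given for members called by sex (at most 12, by size), the 5 members with the highest bound in each sex and the members on 10 or more later arrays; others by range or count. The values of miR-410 and miR-329, of miR-494 at 78 weeks and of the 5-week female were chosen after they were seen. Alternatives covered the scaling, the value of undetected miRNAs, spot signals, normexp (offset 50, on the median signal since the files hold no mean signal), the deposited table, a detection filter, scan, slide and replicate blocks, the methods' t-test, permutations and each array left out; leaving out the 2 dimmest arrays of 2 weeks, the values by probe and those within scans were added after the data were seen.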

Additional observations from a re-analysis of the deposited data

Results flagged for a closer look

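Of 85 groups of arrays looked at for a value far from the rest of its group, 17 had one. For values that spread normally, chance flags about 1 in 20 groups, a rate that does not apply to counts with ties or to values at the floor, which many of these groups hold. At 2 weeks these were miR-541 undetected (0.0120) in female replicate 4, miR-485 at 0.0228 in female replicate 5, miR-369-5p at 0.212 in female replicate 1, and, on the dimmest array, that of male replicate 3, miR-376b-5p at 0.0747 and miR-369-5p at 0.152.

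By number of members detected, the array of 5-week female replicate 2 stood out with 9. In groups whose other arrays were nearly all alike, counts of 1 (8-week female replicate 4, 5-week male replicate 1, 78-week male replicate 5 and 104-week male replicate 4), of 3 (8-week male replicate 4) and of 2 (52-week male replicate 7) stood out by 1 or 2 members. miR-409-3p was undetected (0.0120) in 52-week female replicate 6 and detected, unlike in the rest of the group, in 8-week male replicate 4 (0.184) and 52-week male replicate 7 (0.156). miR-494 was low in 104-week female replicate 1 (0.508) and high in 104-week male replicate 5 (4.12).

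The 2-week difference from later ages differed between the sexes, by the interaction test over all 88 arrays, for 18 members, each with the larger difference in males. On the log2 scale the excess in males was 2.47 for miR-379*, 2.03 for miR-380*, 2.00 for miR-541, 1.90 for miR-382*, 1.89 for miR-410, 1.43 for miR-377, 1.29 for miR-154*, 1.196 for miR-485, 1.11 for miR-495, 1.08 for miR-379, 1.08 for miR-411, 1.06 for miR-376b-3p, 1.02 for miR-376a, 0.96 for miR-381, 0.94 for miR-376b-5p, 0.83 for miR-382, 0.75 for miR-376c and 0.72 for miR-299. For 4 of these, miR-380*, miR-382*, miR-410 and miR-377, the 10 arrays of 2 weeks alone gave no call. The floor values at later ages lower the spread, and so the p-values, of the interaction test.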

How the results depend on the processing

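The counts of members higher at 2 weeks kept within 1.5 times under every alternative except normexp (4 in females and 8 in males); the cause was not tested. Normexp also left 1 member called by sex at 2 weeks, 1 in the interaction and a median sex difference of 0.22, and called 1 combination of member and later age. The members higher in males at 2 weeks numbered 13 to 20 under the other alternatives, among them 20 without the 2 dimmest arrays, except 5 with the percentile over all miRNAs (median difference 0.94, against 0.90) and 5 with the replicate block (median 0.84), where the labels do not say that numbers pair animals (17 of 33 same-age pairs correlated above 0.1). The median moved to 1.30 with the percentile over miRNAs detected on all arrays. With undetected values at the lowest detected value of their own array, which then vary with how bright the array is, 7 members differed among later ages in females, 30 combinations differed by sex and the interaction count was 5. With the lowest signal before scaling these were 6, 1 and 6. The mean processed signal gave 3 members that differ among later ages in females. Single combinations of member and later age came from the scan block (1) and the methods' t-test (1, miR-494 at 78 weeks), and the percentile over all miRNAs gave 2. Leaving out 1 array gave 18 to 23 members higher at 2 weeks in females and 24 in males, 13 to 21 higher in males at 2 weeks with a median of 0.82 to 0.95, 18 to 22 in the interaction, and 0 to 1 combinations by sex, the 1 being miR-380 at 8 weeks. miR-494 in males was reversed with the percentile over all miRNAs (-1.09 against 0.06). The slide as a random block could not be fitted on the 10 arrays of 2 weeks alone. The results on later ages rest on values below detection, so small changes there were not detectable.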
